A study of Homo sapiens with 6 samples.

Results

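Amino acids cross the membranes of human cells through carrier proteins, and the genes described here belong to 7 families of such carriers and their partners. They are matched by symbol, as every protein coding gene of the table whose symbol is SLC1A, SLC6A, SLC7A, SLC36A, SLC38A or SLC43A with a number, SLC7A6OS, and the heavy chains SLC3A1 and SLC3A2. That gave 60 of the 62754 genes in the table, among its 20075 protein coding genes. The RNA came from HPNE-hTERT cells, an immortalized, non-malignant human pancreatic ductal line that carries hTERT, the catalytic subunit of telomerase, in every library. FOLFIRINOX combined oxaliplatin at 5 µM, SN-38 (the active form of irinotecan) at 25 nM and 5-fluorouracil at 10 µM, and was given for 4 days, which the labels describe as a way to bring on senescence. The cells it is set against had the vehicle, DMSO, for the same 4 days. Each group had 3 polyA RNA-seq libraries, whose columns carry the names P14, P15 and P19 in both groups, and values of single libraries are given in that order. Separate cultures are not stated, and the p-values reflect the variation among these libraries, which may be technical.

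Carriers differ in what they move and what drives them. The heterodimeric exchangers pair a light chain of the SLC7 family, which does the transport, with a heavy chain that takes it to the membrane, and the pair SLC7A11 with SLC3A2 imports cystine in exchange for glutamate. Cystine is reduced inside the cell to cysteine, the limiting building block of glutathione. Other exchangers and sodium-coupled carriers bring in glutamine, the leucine group, arginine, glutamate, glycine and taurine, and several lysosomal carriers report amino acid supply to the growth kinase complex mTORC1. Transcription of many of these genes is known to be raised by ATF4, the transcription factor of the amino acid response.

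Read totals over all genes were 83981154 to 91992824 in the FOLFIRINOX libraries and 86435436 to 97762802 in the vehicle libraries. The share of reads from the 2 mitochondrial ribosomal RNAs was 2.74%, 1.18% and 1.23% in the FOLFIRINOX libraries and 0.864%, 0.563% and 0.552% in those of vehicle, and its part in the results below was not tested. Of 10 markers of ductal epithelium 6 reached 50 normalized reads in any library, led by KRT18 (6759 to 7476 in FOLFIRINOX and 8878 to 10594 in vehicle), KRT8 (at most 2091) and SOX9 (at most 1816), with a summed list level of 8966 to 9959 in FOLFIRINOX and 11979 to 14440 in vehicle. Among those that did not were KRT19, EPCAM and CFTR (at most 17.7, 6.17 and 9.35). All 10 mesenchymal markers reached 50, with a summed level of 813288 to 1028420 in FOLFIRINOX and 1274064 to 1921989 in vehicle. The ductal label is thus met by some of its markers and not by others, in both groups. Of the acinar, immune and endothelial lists no marker reached 50, of the islet list 1 of 5 did (SYP), and of the neural and glial list 2 of 5 did (SYT1 and MBP). In bulk RNA, fewer cells of a type and less RNA per cell cannot be told apart.

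Of the 60 members 34 had enough reads to be tested (10 normalized reads or more in at least 3 libraries). After FOLFIRINOX 9 of the 34 fell and 3 rose, where a gene is called at an adjusted p under 0.05 (limma, Benjamini-Hochberg over 17951 genes). The members that fell carry glutamine and small neutral amino acids (SLC1A4, SLC1A5), leucine (SLC43A1), purine bases (SLC43A3), arginine and lysine (SLC7A1), glutamate (SLC1A1), taurine (SLC6A6), glycine (SLC6A9) and branched-chain amino acids (SLC6A15). Those that rose were the neutral light chain SLC7A8, the leucine facilitator SLC43A2 and the glutamate carrier SLC1A3. Among all genes tested 12.2% were called lower and 11.4% higher, and among protein coding genes 15.4% and 11.1%, while of the members 26.5% were called lower and 8.82% higher. The median log2 difference, FOLFIRINOX minus vehicle, was −0.18 over the 34 members, against 0.02 over all genes tested and −0.03 over the coding ones. All 3 FOLFIRINOX libraries were below all 3 vehicle libraries in 8 of the 34 members and above them in 7. Among all genes tested the shares were 19.6% and 19.9%, and of the 13032 coding genes tested 3067 were below and 2422 above. Within every P number 15 of the 34 members were lower and 8 higher. This compares with 31.5% and 33.7% of all genes tested, and with 4739 and 4305 of the 13032 coding ones.

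Libraries with the same P number deviated from their group means together, and a fit with that number as a block called 15 members lower and 8 higher, against 21.8% and 22.3% of all genes tested and 27.0% and 23.1% of the coding ones. The 12 members called without the block were called again with it, and the 11 added ones are named below with both values. Scaling the libraries to a common read total moved the median of all genes up by 0.11 and the share of calls that were higher to 61.2%, against 48.3% with the deposited scaling; 2684 genes then rose and 1699 fell, and of the members 5 rose and 9 fell, which is 35.7% higher calls against 25.0%. With the P14 library of each group left out, 2 members rose and 8 fell, against 6.47% and 7.62% of all genes tested. Of the 13032 coding genes 869 then rose and 1264 fell. In the authors' deposited table, 4 of the 37 members with an adjusted p rose and 10 fell, against 9.5% and 9.89% of its 23247 genes with one, namely the 12 above with SLC36A4 higher and SLC7A7 lower. DESeq2, which the authors also used, was run on the reads recovered from that table. Its adjusted p-values were nearly those of the deposited table (SLC36A4 0.0482 and SLC7A7 0.0255 in both). Its counts are therefore no separate check. They were 4 higher and 10 lower, against 11.4% and 12.6% of all genes tested and 11.5% and 16.1% of coding ones. On the recovered reads edgeR gave 3 and 9, against 11.1% and 12.2% and, for coding genes, 10.9% and 15.4%.

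**Figure D1:**
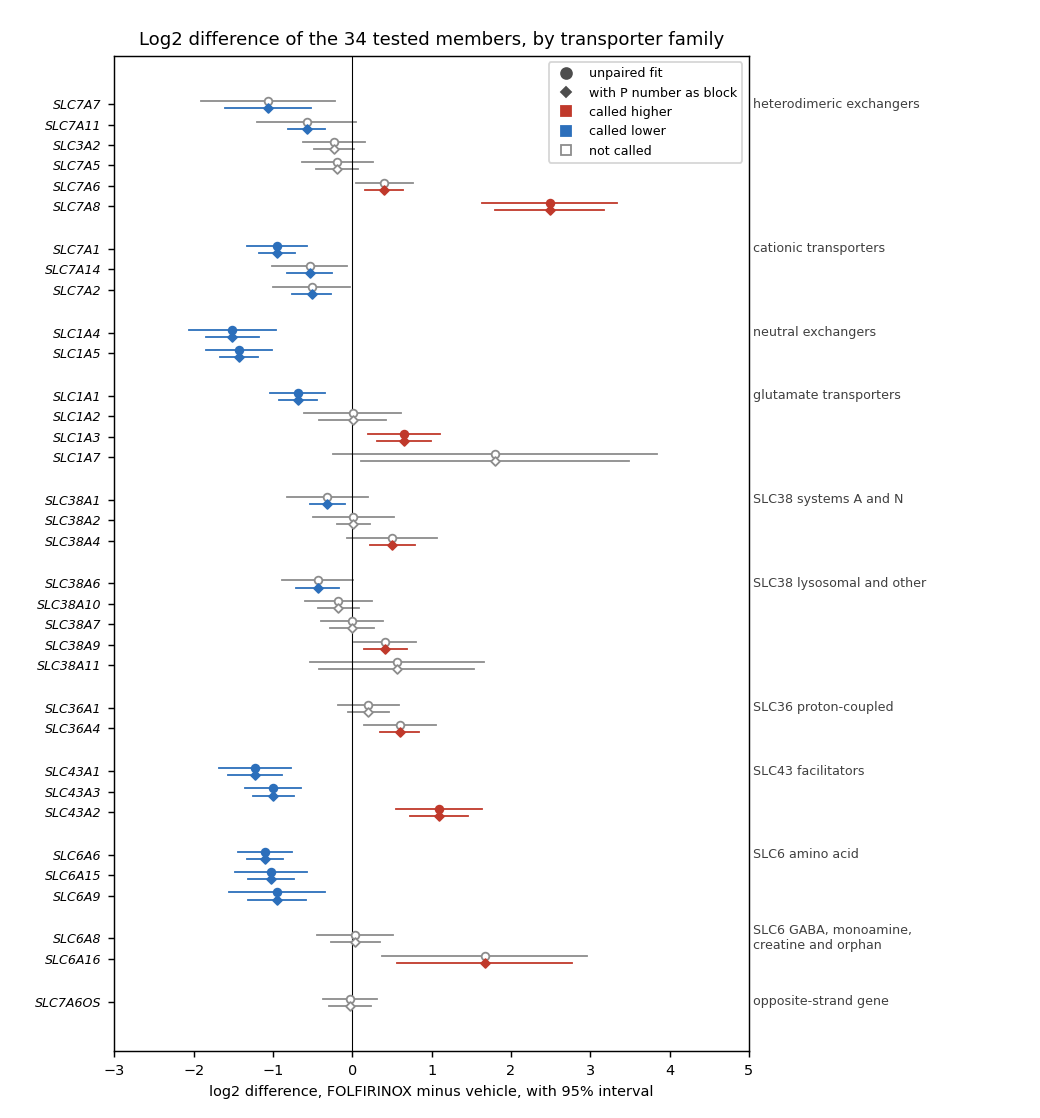
Log2 difference, FOLFIRINOX minus vehicle, with its 95% interval, for the 34 tested members grouped by family; circles are the unpaired fit and diamonds the fit with the P number as a block. Filled red marks are called higher, filled blue marks called lower and open marks not called: both neutral exchangers, both SLC43A1 and SLC43A3, and all 3 tested amino acid carriers of the SLC6 family lie left of 0, and SLC7A8 lies farthest right.

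SLC7A11, the light chain of the cystine importer (GRCh38 chr4:138164097-138242349, minus strand), had 2887, 3369 and 5187 normalized reads in FOLFIRINOX, against 4185, 4729 and 8467 in vehicle. It was lower after FOLFIRINOX within each P number, at 0.69, 0.713 and 0.613 times vehicle, while the groups overlapped, with FOLFIRINOX P19 above vehicle P14 and P15. The means were 3814 ± 1213 in FOLFIRINOX and 5794 ± 2331 in vehicle (SD, n = 3 each). The log2 difference was −0.58 ± 0.28 (SE; 95% interval −1.20 to 0.05) with an adjusted p of 0.169, and the gene was not called. With the block its adjusted p was 1.5e-04 (interval −0.82 to −0.34), and with each library's GC trend removed the difference was −0.80 with an adjusted p of 0.0149. The authors' deposited table gives it −0.60 ± 0.28 with an adjusted p of 0.123. The antisense gene SLC7A11-AS1 overlaps it and had 8.23, 9.84 and 32.7 normalized reads in FOLFIRINOX and 4.10, 4.24 and 14.95 in vehicle, far below SLC7A11. Reads of the 2 genes cannot be told apart where they overlap, since a strand setting for the counting is not given in the sources used here.

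SLC3A2, the heavy chain that SLC7A11 and 5 other light chains of the set pair with (chr11:62856102-62888875, plus strand), had 4190, 5810 and 5564 normalized reads in FOLFIRINOX and 6405, 6429 and 5319 in vehicle. Its groups overlapped, and the log2 difference of −0.23 ± 0.18 (SE) was not called without the block (adjusted p = 0.374) or with it (0.13). Its 95% interval ran from −0.62 to 0.16. SLC3A1, the heavy chain of kidney and gut, was below the filter, with at most 6.17 normalized reads in FOLFIRINOX and 2.12 in vehicle.

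The other light chains differed in direction. SLC7A8, which carries neutral amino acids as LAT2 (chr14:23125295-23183674, minus strand), had 104, 149 and 120 normalized reads in FOLFIRINOX, against 36.9, 19.1 and 13.1 in vehicle. Every FOLFIRINOX library was above every vehicle library. It rose 5.61-fold on the log2(value + 1) scale (2.49 ± 0.39, SE, adjusted p = 0.0011), the largest difference of the called members, at a low level in both groups. SLC7A5, the leucine exchanger LAT1 (chr16:87830023-87869488, minus strand), had 6113, 8668 and 8966 normalized reads in FOLFIRINOX and 9113, 10762 and 7179 in vehicle. These groups overlapped, the difference of −0.19 ± 0.20 (SE; interval −0.64 to 0.26) was not called in either fit, and within P numbers it was 0.671, 0.805 and 1.25 times vehicle. The short copies SLC7A5P1 and SLC7A5P2, with 537 and 536 bases of exon, are both listed at 0 in every library. The SLC7A5 value is uncertain for reads that match these copies, and how much they matter was not tested.

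SLC7A6, the y+LAT2 light chain that exchanges arginine for glutamine (chr16:68264516-68301823, plus strand), had 4137, 4711 and 4998 normalized reads in FOLFIRINOX, against 3001, 3822 and 3654 in vehicle. All FOLFIRINOX libraries were above all vehicle libraries, and its log2 difference of 0.41 ± 0.16 (SE, adjusted p = 0.0999) was called only with the block (adjusted p = 0.0056). SLC7A7, the y+LAT1 light chain (chr14:22773222-22829820, minus strand), had 54.5, 99.3 and 57.9 normalized reads in FOLFIRINOX and 188, 195 and 79.4 in vehicle. The lowest vehicle library, P19, lay below the highest FOLFIRINOX library. Its log2 difference was −1.06 ± 0.38 (SE, adjusted p = 0.0677; 0.0015 with the block). SLC7A6OS, a gene on the opposite strand of SLC7A6 that the naming rule takes in and that is no transporter, had 1668, 1749 and 1603 in FOLFIRINOX and 1566, 1760 and 1807 in vehicle, a log2 difference of −0.03 ± 0.16 (SE); the 2 genes overlap, so reads there could be split between them.

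**Figure D2:**
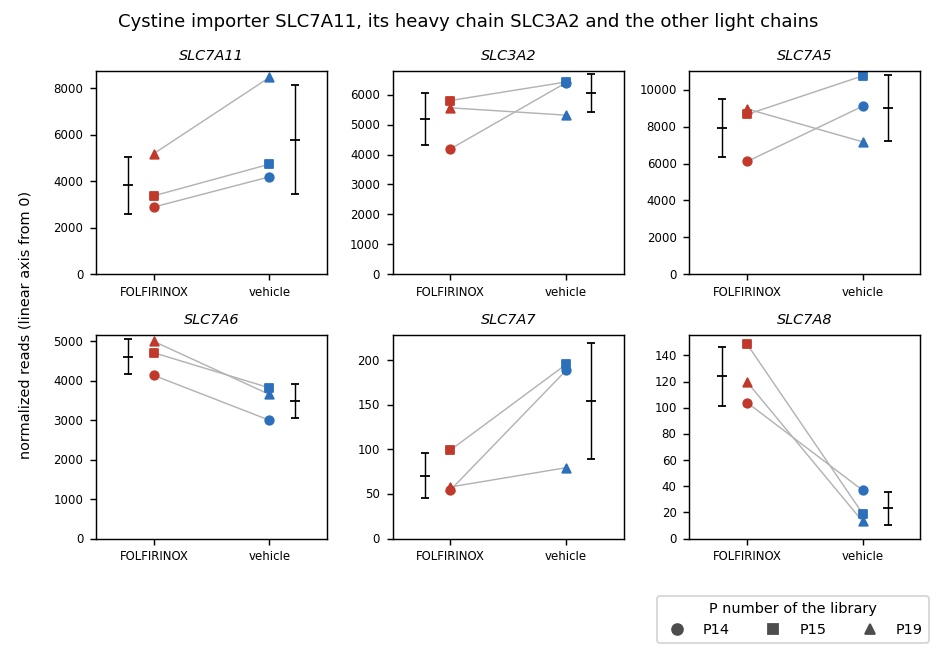
Normalized reads of SLC7A11, its heavy chain SLC3A2 and the light chains SLC7A5, SLC7A6, SLC7A7 and SLC7A8 in each library, FOLFIRINOX left and vehicle right; grey lines join libraries of the same P number, and black bars show the mean and SD of 3. SLC7A11 is lower in FOLFIRINOX on all 3 lines with P19 the highest in both groups, SLC7A6 and SLC7A8 are higher in FOLFIRINOX on all 3, and the lines of SLC3A2 and SLC7A5 cross.

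Per length of exon, the SLC7A5 share of the 6 light chains that pair with SLC3A2 was 61.5% ± 2.5 in FOLFIRINOX and 63.3% ± 9.4 in vehicle (SD, n = 3 each). SLC7A11 held 13.9%, 12.3% and 17.3% of that sum in FOLFIRINOX, against 15.5%, 14.8% and 30.4% in vehicle. SLC7A6 held 22.7% ± 2.2 in FOLFIRINOX and 15.4% ± 1.3 in vehicle. SLC7A8 stayed a minor part, at 0.772% ± 0.119 in FOLFIRINOX and 0.131% ± 0.078 in vehicle, and SLC7A10, a neutral light chain of brain, was listed at 0 reads in every library. These shares describe RNA and were not tested.

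Both neutral amino acid exchangers of the SLC1 family fell. SLC1A5, the glutamine carrier ASCT2 (chr19:46774883-46788594, minus strand), had 4976, 6469 and 5604 normalized reads in FOLFIRINOX, against 16555, 17943 and 11860 in vehicle. Every FOLFIRINOX library was below the lowest vehicle library. It was 2.69-fold lower (log2 −1.43 ± 0.19, SE, adjusted p = 3.5e-04). SLC1A4, the alanine, serine and cysteine carrier ASCT1 (chr2:64988477-65023865, plus strand), had 356, 490 and 445 normalized reads in FOLFIRINOX and 1280, 1665 and 855 in vehicle. The groups were apart here too, with vehicle P19 the lowest of its group, and the gene was 2.86-fold lower (−1.52 ± 0.25, SE, adjusted p = 0.0014).

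Promoters of these and a few other members hold the letters TGATGNAA, the core of the amino acid response motif that ATF4 is known to bind with C/EBP partners. RefSeq promoter windows on GRCh38.p14, each 250 bases before to 50 bases after a start, were matched for 45 of the 60 members (67 promoters). SLC7A11 was not among the 45, so its promoter was not searched for any of the motifs below. The letters, searched on both strands, stood in 6 of the 67 (8.96%), of 6 different genes, against 3.62% of 35116 promoters. The 4 members with the letters that were called are printed here without their last 30 bases and with the match in capitals, because 3 of them fell and 1 rose; the other two, SLC3A2 and SLC38A1, were not called without the block. The windows lie at chr2:64989149-64989418, plus strand, for SLC1A4; at chr19:46784795-46785064, minus strand, for an inner start of SLC1A5, 1 of its 3; at chr13:29595669-29595938, minus strand, for SLC7A1; and at chr5:36596338-36596607, plus strand, for SLC1A3.
SLC1A4: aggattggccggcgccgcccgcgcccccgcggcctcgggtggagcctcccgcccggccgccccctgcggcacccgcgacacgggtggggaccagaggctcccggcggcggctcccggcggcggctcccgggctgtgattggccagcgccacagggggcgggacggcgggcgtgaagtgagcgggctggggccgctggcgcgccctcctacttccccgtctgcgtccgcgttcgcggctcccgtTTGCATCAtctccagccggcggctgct
SLC1A5: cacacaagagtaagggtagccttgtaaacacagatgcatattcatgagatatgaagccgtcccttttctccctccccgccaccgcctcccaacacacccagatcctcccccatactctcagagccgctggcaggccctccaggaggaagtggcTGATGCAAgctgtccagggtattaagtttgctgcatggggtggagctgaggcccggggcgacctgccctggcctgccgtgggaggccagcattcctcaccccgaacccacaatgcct
SLC7A1: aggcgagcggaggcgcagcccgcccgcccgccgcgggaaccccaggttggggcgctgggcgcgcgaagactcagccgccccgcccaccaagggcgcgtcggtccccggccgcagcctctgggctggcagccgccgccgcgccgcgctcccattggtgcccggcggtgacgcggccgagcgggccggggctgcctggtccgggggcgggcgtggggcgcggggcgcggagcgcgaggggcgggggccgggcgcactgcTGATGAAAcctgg
SLC1A3: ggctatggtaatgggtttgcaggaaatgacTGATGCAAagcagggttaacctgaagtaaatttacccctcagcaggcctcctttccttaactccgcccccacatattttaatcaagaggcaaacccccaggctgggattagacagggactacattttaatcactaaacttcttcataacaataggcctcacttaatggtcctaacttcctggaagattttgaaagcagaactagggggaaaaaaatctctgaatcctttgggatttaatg
The match begins 7 bases before the start in SLC1A4, where it is on the reverse strand (TTGCATCA), 97 bases before it in SLC1A5 and 220 before it in SLC1A3, both as TGATGCAA. In SLC7A1 it reads TGATGAAA and lies just after the start. The SLC1A3 window printed here belongs to an outer start, upstream of the gene start at chr5:36606355. A further SLC1A3 promoter, at chr5:36606356-36606655, held no such match. SLC1A4, SLC1A5 and SLC7A1 had lower levels after FOLFIRINOX, as given above and below, and SLC1A3 had higher ones. The antioxidant response letters TGACNNNGC, also searched on both strands, stood in 7 of the 67 member promoters (10.4%) against 13.3% of all, and the E-box CACGTG in 10 (14.9%) against 7.26%. These matches are descriptions of letters, no site was measured, and overlaps between motifs were allowed.

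**Figure D3:**
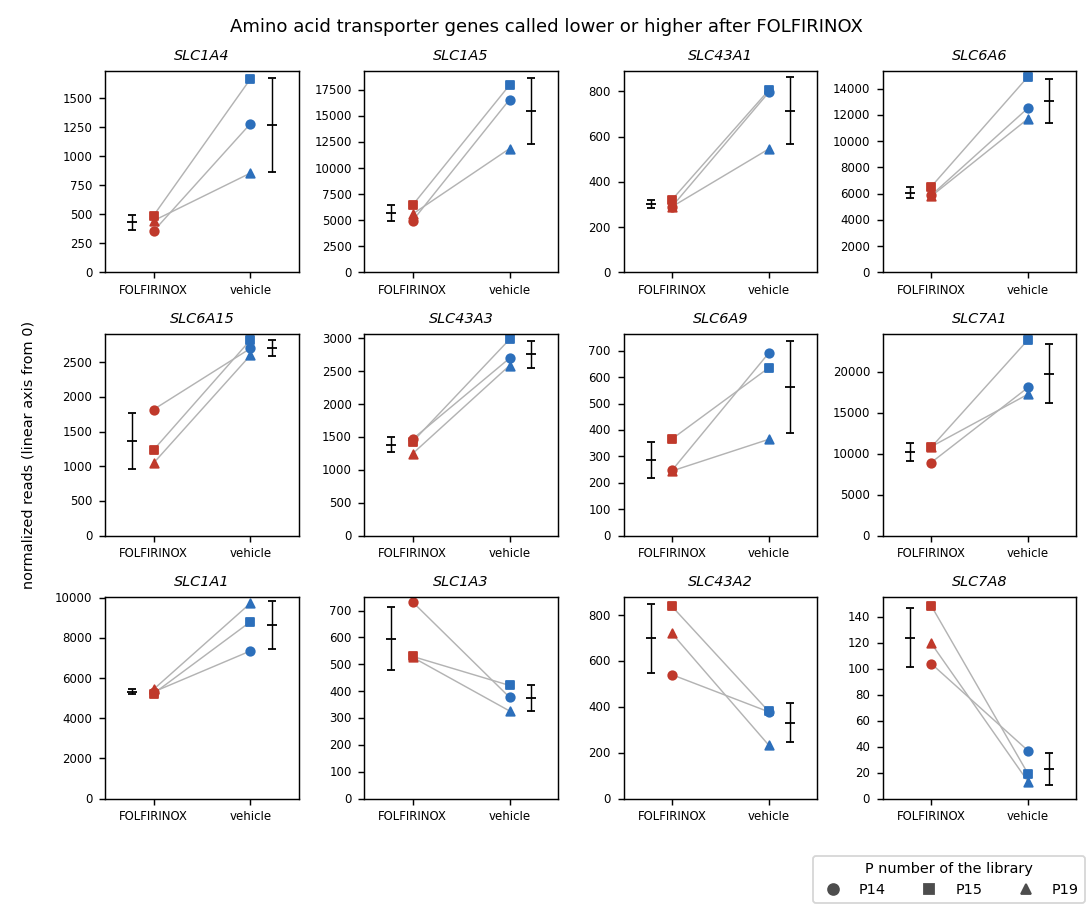
Normalized reads in each library of the 12 members called without a block, FOLFIRINOX left and vehicle right, in order of log2 difference; grey lines join libraries of the same P number, and black bars show the mean and SD of 3. The groups are apart in every panel but SLC6A9, where FOLFIRINOX P15 (366) lies just above vehicle P19 (365).

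Among the cationic carriers SLC7A1, the arginine and lysine carrier CAT1 (chr13:29509410-29595688, minus strand), had 8918, 10782 and 10857 normalized reads in FOLFIRINOX, against 18092, 23916 and 17266 in vehicle. All FOLFIRINOX libraries were lower, and the gene was 1.93-fold lower (log2 −0.95 ± 0.17, SE, adjusted p = 0.0028). SLC7A2, the related CAT2 (chr8:17497088-17570573, plus strand), had 5258, 4700 and 6547 normalized reads in FOLFIRINOX and 5977, 7343 and 10709 in vehicle. The groups overlapped, FOLFIRINOX was lower in each pair, and the log2 difference of −0.51 ± 0.22 (SE) was called with the block (adjusted p 0.121 without, 7.8e-04 with) and with GC trends removed (0.0155). SLC7A14, a lysosomal member of the family (chr3:170459584-170586074, minus strand), had 869, 960 and 1347 in FOLFIRINOX and 1207, 1685 and 1686 in vehicle, likewise overlapping and lower in each pair (−0.54 ± 0.22, adjusted p 0.0979 without the block, 0.0022 with it and 0.0331 with GC trends removed).

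The glutamate carriers split. SLC1A1, the neuronal and epithelial carrier EAAC1 that also takes up cysteine (chr9:4490444-4587469, plus strand), had 5309, 5226 and 5437 normalized reads in FOLFIRINOX, against 7347, 8800 and 9722 in vehicle. The FOLFIRINOX libraries were nearly equal and all below vehicle, 1.61-fold lower (log2 −0.69 ± 0.16, SE, adjusted p = 0.0096). SLC1A3, the glial carrier GLAST (chr5:36606355-36688334, plus strand), had 731, 529 and 526 normalized reads in FOLFIRINOX and 377, 421 and 326 in vehicle. All FOLFIRINOX libraries were higher, and the difference of 0.66 ± 0.21 (SE) passed the threshold narrowly (adjusted p = 0.0401). That call was lost whichever library was left out (adjusted p 0.0551 to 0.136). SLC1A2, the glial carrier GLT1, had 135, 255 and 266 in FOLFIRINOX and 192, 216 and 219 in vehicle, with a log2 difference of 0.00 ± 0.28 (SE; interval −0.60 to 0.61). SLC1A7 had 8.23, 27.5 and 13.1 normalized reads in FOLFIRINOX and 12.3, 0 and 5.61 in vehicle, too few for a firm value (1.80 ± 0.93, adjusted p = 0.189).

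The 3 genes of the SLC43 family were all called, in opposite directions; SLC43A1 and SLC43A2 let large neutral amino acids pass without an ion. SLC43A1, the leucine facilitator LAT3 (chr11:57484534-57515786, minus strand), had 291, 322 and 290 normalized reads in FOLFIRINOX and 796, 805 and 546 in vehicle, so FOLFIRINOX was lower throughout, by 2.34-fold (log2 −1.23 ± 0.21, SE, adjusted p = 0.0017). SLC43A2, the leucine facilitator LAT4 (chr17:1569267-1628886, minus strand), had 540, 838 and 720 in FOLFIRINOX and 378, 380 and 233 in vehicle. It was higher in every FOLFIRINOX library, 2.13-fold (1.09 ± 0.25, SE, adjusted p = 0.0093). SLC43A3, which lies next to SLC43A1 on the chromosome and is known to carry purine nucleobases (chr11:57406954-57427580, minus strand), had 1469, 1430 and 1248 in FOLFIRINOX and 2697, 2985 and 2587 in vehicle, 1.99-fold lower with no overlap (−0.996 ± 0.16, SE, adjusted p = 0.0012).

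All 3 tested amino acid carriers of the SLC6 family, which are driven by sodium and chloride, fell. SLC6A6, the taurine carrier TauT (chr3:14402576-14489349, plus strand), had 5877, 6533 and 5807 normalized reads in FOLFIRINOX and 12524, 14909 and 11708 in vehicle. The ratio was nearly the same in each pair (0.469, 0.438 and 0.496), and the gene was 2.14-fold lower (log2 −1.10 ± 0.16, SE, adjusted p = 5.5e-04). SLC6A15, a carrier of branched-chain amino acids and proline (chr12:84859488-84913615, minus strand), had 1817, 1234 and 1044 in FOLFIRINOX, against 2697, 2818 and 2598 in vehicle. The vehicle libraries were close together, and the FOLFIRINOX ones spread below them, 2.03-fold lower (−1.02 ± 0.21, SE, adjusted p = 0.0050). SLC6A9, the glycine carrier GlyT1 (chr1:43991500-44031467, minus strand), had 247, 366 and 245 in FOLFIRINOX and 692, 636 and 365 in vehicle. Its groups overlapped slightly, and its call (−0.95 ± 0.27, SE, adjusted p = 0.0283) was lost when FOLFIRINOX P14 or P19 or vehicle P14 or P15 was left out (adjusted p 0.0795 to 0.113) and without both P14 libraries (0.217).

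Of the remaining SLC6 genes, the creatine carrier SLC6A8 (chrX:153688099-153696593, plus strand) had 610, 757 and 512 normalized reads in FOLFIRINOX and 631, 719 and 483 in vehicle. The log2 difference was 0.04 ± 0.22 (SE; interval −0.44 to 0.52), and the value is uncertain because its near-identical copy SLC6A10P is listed at 0 in every library. SLC6A16, an orphan of the family, had 23.7, 36.4 and 27.1 in FOLFIRINOX and 13.3, 13.8 and 2.80 in vehicle. FOLFIRINOX was higher throughout at this low level, and the difference of 1.67 ± 0.59 (SE, adjusted p = 0.0628) was called with the block (0.013).

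SLC38A2, the stress-responsive system A glutamine and alanine carrier SNAT2 (chr12:46358189-46372867, minus strand), was the most abundant member per length of exon in both groups. It had 71018, 79810 and 112574 normalized reads in FOLFIRINOX, against 66710, 80178 and 116240 in vehicle, with P19 high in both. Its log2 difference was 0.01 ± 0.23 (SE; interval −0.50 to 0.52; −0.20 to 0.22 with the block). Its sign flips with TMM scaling (−0.03) and with GC trends removed (−0.17), at no call. SLC38A1, the related SNAT1 (chr12:46183063-46270017, minus strand), had 7496, 8846 and 12573 in FOLFIRINOX and 8849, 12285 and 14731 in vehicle. The groups overlapped and FOLFIRINOX was lower in each pair, with a difference of −0.31 ± 0.23 (SE) called only with the block (adjusted p 0.361 without, 0.021 with). SLC38A4, the third system A carrier (chr12:46764761-46832408, minus strand), had 1245, 1398 and 1872 in FOLFIRINOX and 758, 991 and 1518 in vehicle, higher in FOLFIRINOX in each pair and called with the block (0.50 ± 0.26, SE; adjusted p 0.186 without, 0.0035 with) and when vehicle P19 was omitted (0.0276).

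None of the lysosomal and proton-coupled carriers of the SLC38 and SLC36 families was called without the block. SLC38A9, the lysosomal arginine sensor of mTORC1 (chr5:55625845-55773194, minus strand), had 2810, 1992 and 2405 normalized reads in FOLFIRINOX and 1668, 1707 and 1989 in vehicle. FOLFIRINOX was higher throughout, by 0.42 ± 0.18 on the log2 scale (SE), and the gene was called with the block (adjusted p 0.118 without, 0.011 with) but not with GC trends removed as well (0.0788). SLC36A4, a proline and tryptophan carrier (chr11:93144171-93197964, minus strand), had 3597, 3688 and 4790 in FOLFIRINOX and 2209, 2392 and 3463 in vehicle, with no overlap. Its difference of 0.60 ± 0.20 (SE) missed the threshold (adjusted p = 0.0564), and it passed with the block (1.5e-04), in the authors' deposited table (0.0482) and with common-total scaling (0.0282). SLC36A1, the lysosomal proton-coupled carrier PAT1, had 2120, 2653 and 2434 in FOLFIRINOX and 2129, 2364 and 1779 in vehicle, and was called in neither fit (0.20 ± 0.17, SE, adjusted p = 0.43), though it passed with the block and GC trends removed together (0.0275).

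SLC38A6 (chr14:60981114-61083733, plus strand) had 1500, 1096 and 1227 normalized reads in FOLFIRINOX and 1993, 1345 and 1867 in vehicle. It overlapped between groups, was lower in each pair, and was called with the block (−0.44 ± 0.20, SE; adjusted p 0.144 without, 0.0083 with) and with GC trends removed (0.0235). The lysosomal glutamine carrier SLC38A7, SLC38A10 and SLC38A11 were called in neither fit, with log2 differences of −0.0025 ± 0.18, −0.17 ± 0.19 and 0.56 ± 0.50 (SE). SLC38A11 had at most 34.6 normalized reads in FOLFIRINOX and 22.4 in vehicle.

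**Figure D4:**
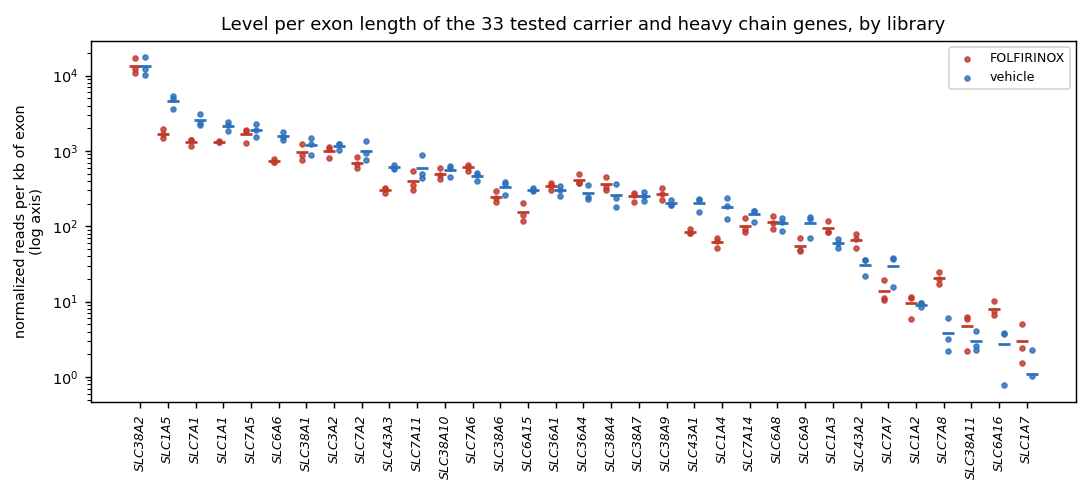
Normalized reads per kb of exon on a log axis for the 33 tested carrier and heavy chain genes, ordered by the vehicle mean, FOLFIRINOX left of vehicle for each gene; points are libraries and bars group means, and the vehicle library of SLC1A7 at 0 cannot be drawn on the log axis. SLC38A2 stands above all others in both groups, and SLC7A8, SLC38A11, SLC6A16 and SLC1A7 are at the low end.

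Levels per length, taken here without SLC7A6OS, differed widely. SLC38A2 had 13299 ± 3317 normalized reads per kb in FOLFIRINOX and 13285 ± 3879 in vehicle (SD, n = 3 each). Its share of the summed per-length level of all members but SLC7A6OS was 46.5%, 45.6% and 53.2% in FOLFIRINOX and 33.2%, 34.2% and 46.6% in vehicle. SLC1A5 was the second in both groups, at 1706 ± 225 per kb in FOLFIRINOX and 4638 ± 957 in vehicle, and its share was 6.34% ± 1.04 in FOLFIRINOX against 13.6% ± 3.7 in vehicle. In FOLFIRINOX it was followed by SLC7A5 (1668 ± 331), SLC1A1 (1332 ± 26.6) and SLC7A1 (1324 ± 143) per kb; SLC1A5 and SLC7A5 lay within their spread of each other, as did SLC1A1 and SLC7A1. In vehicle the order was SLC7A1 (2569 ± 471), SLC1A1 (2157 ± 299) and SLC7A5 (1900 ± 378) per kb. There SLC1A1 and SLC7A5 lay within their spread of each other. SLC7A1 and SLC1A1 differed by more than the SD of SLC1A1 and less than that of SLC7A1. SLC7A11 had 395 ± 126 per kb in FOLFIRINOX and 601 ± 242 in vehicle, below its heavy chain SLC3A2 (1002 ± 169 in FOLFIRINOX and 1169 ± 122 in vehicle).

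The other 26 members were not tested. Of these 12 had no read in any library: the cationic SLC7A3, the light chains SLC7A10 and SLC7A13, the system N carrier SLC38A3, and 8 of the SLC6 family, among them SLC6A3, SLC6A5, SLC6A11, SLC6A12, SLC6A14, SLC6A18 and SLC6A19, which include carriers of dopamine and glycine. The other 14 had reads, at most 14.3 normalized reads (SLC6A17 in a vehicle library). In 9 of them reads were found in FOLFIRINOX libraries alone, 10 at most when summed over 3 libraries, in 1 in vehicle alone and in 4 in both groups.

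Genes around the transporters were taken from lists whose members overlap in SESN2, CHAC1 and ATF4. The lists hold coding genes only, while the shares beside them below are of all genes. Among coding genes tested 15.4% were called lower and 11.1% higher, and with the block 27.0% and 23.1%. With both P14 libraries left out, 1264 of the 13032 coding genes fell and 869 rose. On the amino acid response list of 30 genes tested 4 rose and 14 fell, with a median of −0.44, against 11.4% and 12.2% of all genes. PHGDH, the first enzyme of serine synthesis, had 970, 1385 and 1208 normalized reads in FOLFIRINOX and 6479, 6879 and 5351 in vehicle, with no overlap (log2 −2.40 ± 0.18, SE, adjusted p = 5.3e-06). PCK2, the mitochondrial PEP carboxykinase, had 583, 600 and 644 in FOLFIRINOX and 2917, 3011 and 1990 in vehicle (−2.09 ± 0.19, adjusted p = 2.3e-05). ATF4 itself fell 1.69-fold, at 15892, 15655 and 16586 in FOLFIRINOX and 27409, 25873 and 27885 in vehicle (−0.75 ± 0.14, adjusted p = 0.0029). SESN2, a leucine sensor that restrains mTORC1, rose 2.59-fold, with 2146, 3493 and 2776 in FOLFIRINOX and 1203, 1192 and 836 in vehicle (1.37 ± 0.22, adjusted p = 0.0013). ATF3, a stress transcription factor, rose by 0.72 ± 0.17 (adjusted p = 0.011). With both P14 libraries left out, 3 of these genes rose and 10 fell, against 6.47% and 7.62% of all genes.

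The 19 tested genes of cystine use and glutathione held 6 that fell and none that rose, with a median of −0.18, against 12.2% of all genes lower and 11.4% higher. With the block 2 of them rose (10.5%) and 6 fell (31.6%), against 22.3% and 21.8% of all genes. CBS and CTH, the enzymes that make cysteine from homocysteine, had the largest falls. CBS had 74.1, 90.5 and 158 normalized reads in FOLFIRINOX and 447, 609 and 438 in vehicle (−2.26 ± 0.29, SE, adjusted p = 2.7e-04), and CTH had 189, 135 and 157 in FOLFIRINOX and 420, 449 and 384 in vehicle (−1.39 ± 0.21, SE, adjusted p = 8.3e-04). The other genes that fell were the glutathione-degrading CHAC1 and CHAC2, the 5-oxoprolinase OPLAH and the thioredoxin reductase TXNRD1. The call of OPLAH was lost when either P14 library or vehicle P15 was omitted (adjusted p 0.0513 to 0.0745), that of TXNRD1 without FOLFIRINOX P15, FOLFIRINOX P19 or vehicle P19 (0.0691 to 0.103), and that of CHAC1 with both P14 libraries left out (0.105). Of the 2 subunits of glutamate-cysteine ligase, the catalytic GCLC had 3265, 3125 and 4037 in FOLFIRINOX and 2216, 2539 and 3058 in vehicle (0.42 ± 0.18, SE; adjusted p 0.118 without the block and 0.0057 with it). The modifier subunit GCLM differed by 0.07 ± 0.17 (interval −0.30 to 0.44), and CTNS, the lysosomal cystine exporter, by −0.25 ± 0.20 (adjusted p = 0.4).

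Of 30 tested genes of amino acid sensing by mTORC1 4 rose and 3 fell, with a median of −0.05; these are 13.3% and 10.0% of the list, against 11.4% and 12.2% of all genes. With the block 7 rose and 9 fell, against 22.3% and 21.8%, and with both P14 libraries left out 4 rose and 1 fell, against 6.47% and 7.62%. SESN1, another sestrin, had 10368, 10817 and 11619 normalized reads in FOLFIRINOX and 1580, 1759 and 1939 in vehicle (2.64 ± 0.15, SE, adjusted p = 6.1e-07), and SESN3 had 86.4, 136 and 116 in FOLFIRINOX and 38.9, 31.8 and 33.6 in vehicle (1.65 ± 0.29, SE, adjusted p = 0.0024). RPTOR, the scaffold of mTORC1, fell by 0.71 on the log2 scale with an SE of 0.19, a call lost when either P14 library, vehicle P15 or the pair of P14 libraries was left out (adjusted p 0.0697 to 0.152). SEC13, of the GATOR2 complex, fell by 0.66 with an SE of 0.14.

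Among 9 genes known to regulate SLC7A11, 2 fell (ATF4 and MYC) and none rose, against 12.2% and 11.4% of all genes. With the block 4 fell and 1 rose, against 21.8% and 22.3%, and with both P14 libraries left out 1 fell, against 7.62%. MYC fell by 0.55 with an SE of 0.17, a call lost on omitting any 1 library, vehicle P19 excepted (adjusted p 0.0527 to 0.142). NFE2L2, which encodes NRF2, the activator of SLC7A11 transcription, had 13396, 10586 and 13979 normalized reads in FOLFIRINOX and 9553, 8571 and 11980 in vehicle (0.34 ± 0.18, SE; adjusted p 0.201 without the block and 0.013 with it). Its partner KEAP1, which marks NRF2 for breakdown, differed by −0.12 ± 0.19. The activity of these factors was not measured.

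Amino acid carriers of other families, most of them mitochondrial, held 19 tested genes, of which 5 fell and none rose, against 12.2% and 11.4% of all genes. With the block 8 fell, against 21.8%, and with both P14 libraries left out 3 fell, against 7.62%. SFXN2, a mitochondrial sideroflexin, had 77.2, 108 and 106 normalized reads in FOLFIRINOX and 557, 691 and 713 in vehicle (−2.75 ± 0.22, SE, adjusted p = 7.5e-06). SLC25A22, the mitochondrial glutamate carrier, had 413, 507 and 465 in FOLFIRINOX and 1045, 864 and 775 in vehicle (−0.95 ± 0.19, SE, adjusted p = 0.0045).

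**Figure D5:**
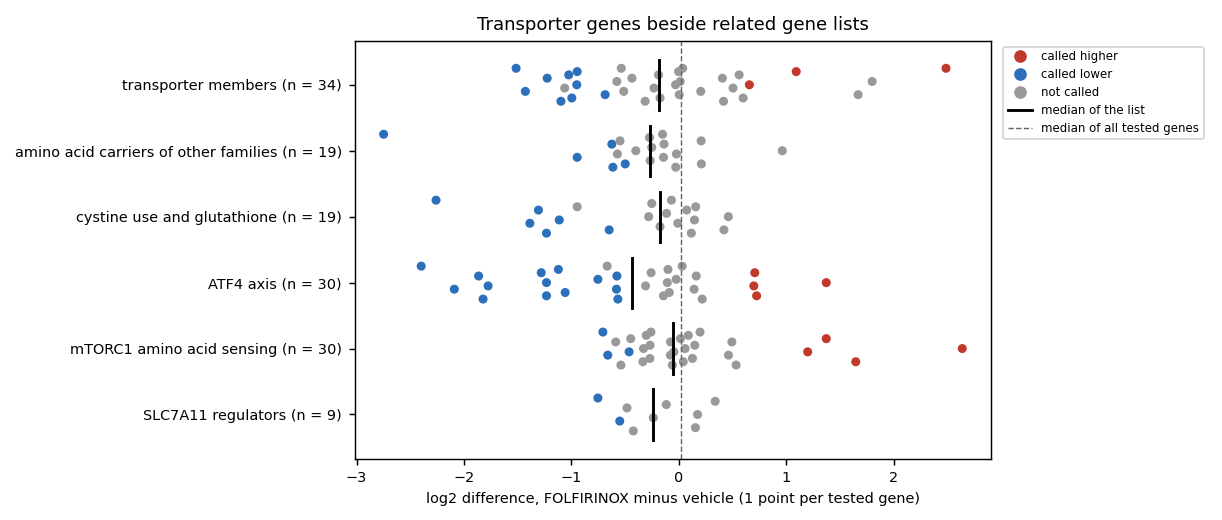
Log2 difference, FOLFIRINOX minus vehicle, of each tested gene of the transporter set and of 5 related lists, 1 point per gene with vertical position spread for legibility; black bars are list medians and the dashed line is the median of all genes tested (0.02). Called genes are mostly lower on the amino acid response, cystine and other-carrier rows, and SESN1 stands at the far right of the mTORC1 row.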

How the data were processed

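RNA-seq of 6 libraries was deposited as 1 table of normalized gene values with the authors' own comparison beside them. The normalized signal values were made by the authors from gene counts divided by size factors, which the values bear out: dividing by the value of 1 read gave whole numbers, within 0.001, for 100% of values, and these are the read totals quoted. Per the submitters' processing notes, FastQC 0.12.1, STAR 2.7.11b, featureCounts 2.0.6, DESeq2 and GRCh38 were used. The deposited log2 fold changes, their errors, the test statistic (a score) and the p-values and adjusted p-values of the authors are quoted only where named as the authors' deposited table. Counts under 50 were even in 72.3% to 74.8% of cases per library, so counting intervals are not given. Whether both reads of a pair were counted is not stated, and read totals and sums may exceed the number of fragments.

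Here log2(value + 1) was fitted with limma 3.58.1 with a mean-variance trend (R 4.3.3), FOLFIRINOX minus vehicle, for 17951 genes with 10 or more in at least 3 libraries. Fold changes are on that scale, which understates those of low genes. Adjusted p-values of limma and edgeR are Benjamini-Hochberg over all 17951 genes, with a threshold of 0.05. With no filter they are over 32997 genes, and with a filter at 50 over 13878. Those of DESeq2 are its own, computed on the whole table before the 17951 genes were taken. edgeR 4.0.16 and DESeq2 1.42.0 on the recovered reads, other scalings, filters and pseudocounts, GC correction, leave-one-out fits and a P number block were alternatives. The DESeq2 run shares its tool and reads with the authors' deposited table, so those 2 are not separate from each other. edgeR called 1987 genes higher and 2183 lower. The column names hold P14, P15 and P19, which no label explains, so columns were mapped to groups only. Deviations from group means correlated at 0.26 to 0.29 between the groups for the same P number, and on this ground the numbers were taken as pairs. For different P numbers they correlated at −0.26 to −0.03. These negative values are no separate ground, since subtracting the group means ties them to the positive ones. A test used simulated reads of this comparison (17507 genes). There limma found 65 of 66 planted 4-fold changes, 40 of 67 at 2-fold and 9 of 67 at 1.5-fold, with 6 false calls. Changes were planted only in genes averaging over 50 normalized reads, and no effect of the P number was simulated, so the rates do not cover lower genes. The planted changes were far fewer than the calls in the real fit (2047 higher and 2191 lower). Benjamini-Hochberg adjustment depends on that number, so these rates do not give the share of real changes found here. An exact permutation test of 3 against 3 could not go below p = 0.1.

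The members and gene lists were chosen with earlier results of these data known. Values in every library are given for SLC7A11, SLC3A2 and members called with or without the block whose higher group averaged at least 50; from each list, up to 2 called genes per direction with the largest difference are named, with ATF4, NFE2L2, KEAP1, GCLC, GCLM and CTNS. A few genes that these rules name are not reported here. Per-length levels and coordinates use GENCODE 29 on GRCh38; promoter sequences are from RefSeq.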

Additional observations from a re-analysis of the deposited data

How the results depend on the processing

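With the P number as a block, 3995 genes were called higher and 3918 lower, with 8 and 15 members; with the GC trend removed as well, 4216 and 4754 genes and again 8 and 15 members, of which SLC36A1 was gained and SLC38A9 lost (adjusted p 0.0275 and 0.0788). The blocked SLC7A11 difference was −0.58, and −0.80 with the GC trend removed, with or without the block; SLC7A11 passed the threshold in these 3 fits and in no other tried. The block changed the calls of the 11 members named in the report, of the pathway genes given with both values and of the marker KRT8. KRT8 was called lower only with it (adjusted p 0.117 without the block, 0.0072 with it, limma). No other call of a named gene changed with the block. Without both P14 libraries 1162 genes were higher and 1368 lower. Leaving out 1 library gave 1318 to 2218 genes higher, 2 to 4 members higher and 8 to 10 members lower. Common-total scaling gave 5 members higher. The cause of these shifts was not tested.

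Of the 12 called members, 10 held under every alternative, and SLC1A3 and SLC6A9 did not: SLC1A3 also missed the threshold with no filter, TMM scaling, no trend and without both P14 libraries (adjusted p 0.0546 to 0.187), and SLC6A9 with no trend (0.075). Sign changes were seen only in genes called neither before nor after. SLC38A7 was 0.11 with common-total scaling, 0.10 with quantile scaling, 0.11 with GC trends removed (with or without the block), 0.12 without both P14 libraries and −0.10 to 0.11 with 1 library left out. SLC38A2 was −0.026 with TMM, −0.17 with GC trends removed (with or without the block), −0.026 without both P14 libraries and −0.18 to 0.24 with 1 library left out. SLC1A2 was −0.034 with TMM, −0.12 with GC trends removed (with or without the block) and −0.17 to 0.32 with 1 library left out. SLC6A8 was −0.0024 with TMM and −0.12 to 0.17 with 1 library left out. SLC7A6OS was 0.079 with common-total and 0.084 with quantile scaling, and −0.093 to 0.010 with 1 library left out. KEAP1 was 0.0052 with GC trends removed (with or without the block), 0.10 without both P14 libraries and −0.26 to 0.0026 with 1 library left out. GCLM was −0.12 with GC trends removed (with or without the block) and −0.015 to 0.19 with 1 library left out. Without both P14 libraries SLC38A10 was 0.043 and SLC7A5 0.0043.

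With 3 libraries a group, the median 95% half-width, not adjusted for the number of genes, was 0.50 on the log2 scale. Calls used adjusted p-values, so without the block a typical gene needed a difference larger than this. Genes with a smaller error could be called below it, as KRT18 was without the block (−0.47, limma, adjusted p = 0.043). Members under the filter could not be compared.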

Other observations

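Ratios of per-length levels between members within a library, chosen after their values were seen and not tested, show how the balance of related carriers differed. SLC43A2 over SLC43A1 was 0.618, 0.868 and 0.826 in FOLFIRINOX (P14, P15, P19), against 0.158, 0.157 and 0.142 in vehicle. SLC7A8 over SLC7A7 was 1.63, 1.28 and 1.77 in FOLFIRINOX and 0.168, 0.0838 and 0.141 in vehicle, so that the more abundant of this pair was SLC7A8 in FOLFIRINOX and SLC7A7 in vehicle. SLC1A5 over SLC7A5 was 1.16, 1.06 and 0.890 in FOLFIRINOX and 2.59, 2.37 and 2.35 in vehicle. SLC1A4 over SLC1A5 was 0.0343, 0.0364 and 0.0382 in FOLFIRINOX and 0.0371, 0.0446 and 0.0346 in vehicle, overlapping between groups. SLC7A11 over its heavy chain SLC3A2 was 0.370, 0.311 and 0.5005 in FOLFIRINOX and 0.351, 0.395 and 0.855 in vehicle, with P19 the highest of both groups.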
